A study of Bos taurus with 12 samples.

Results

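miR-320a, miR-320b, miR-484 and miR-877 were followed in small RNA sequencing of blood taken from Chinese Holstein cows. The table names miRNAs by species, arm and sequence variant, and every row whose name reduces to miR-320, miR-320a, miR-320b, miR-484 or miR-877 was taken. This gave 13 of the 2183 rows, with 11 names, and 10 features once rows of 1 miRNA with the same values were counted once. There were 2 features of miR-320a, 4 of miR-320b, 1 of miR-484 and 3 of miR-877.

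The groups were 6 heat stressed and 6 heat resistant cows, a division that the study made by principal component analysis from rectal temperature and lost milk yield. The 2 groups are therefore classes of cows and not an applied treatment, and genotype, age, the level of heat and the blood fraction were not among the labels. Each library was taken as 1 cow, although the protocol text counts 9 libraries. Nothing else separates the libraries in the labels.

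Most miRNAs are cut by the nuclear enzyme Drosha out of a long transcript and then by Dicer in the cytoplasm. In human and mouse cells these miRNAs bypass the Drosha cut. The miR-320 and miR-484 hairpins are transcribed directly as short capped RNAs, which leave the nucleus by the Exportin 1 route, and from the capped miR-320 hairpin it is the 3' arm that is loaded into Argonaute. miR-877 is a mirtron, a hairpin released by splicing as a whole intron of ABCF1. In human reticulocytes miR-320 acts on the transferrin receptor CD71, which is lost as red cells mature, and in mouse heart miR-484 acts on the mitochondrial fission factor FIS1. Counts of mature miRNA do not show by which route a molecule was made, so the route is background here and was not measured. In the RefSeq annotation of the cattle assembly ARS-UCD2.0, the gene MIR877 lies within ABCF1, MIR484 lies next to NDE1, MIR320A-1 lies next to POLR3D, MIR320A-2 lies within RNF180, and MIR320B lies between PODXL and PLXNA4.

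Total counts, with repeat rows counted once, ran from 3992952 to 9813801 per library. Levels are given in CPM, counts scaled to the TMM-adjusted total of the tested features. Marker miRNAs were set beside the blood label. Those of blood cells, liver and muscle were all present, so their presence does not test the label. miR-451, miR-144 and miR-486 of red cells, miR-223 of myeloid cells, miR-142 of blood cells, miR-150 and miR-342 of lymphocytes and miR-126 of platelets and endothelium had counts in every library, as did the hepatocyte miRNA miR-122 and the muscle miRNAs miR-1, miR-133a, miR-133b and miR-206. The summed red cell markers ran from 26245 to 82286 CPM in heat stressed libraries. In heat resistant libraries they ran from 20217 to 27657 CPM in 5 cows and stood at 97827 CPM in library 4.

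miR-320a was by far the most abundant of these miRNAs, and heat stressed and heat resistant cows had nearly the same level of it. In heat stressed cows it ranged from 16052 to 19688 CPM with a median of 18215 CPM, and in heat resistant cows from 16617 to 20649 CPM with a median of 19818 CPM. The ranges overlapped, although all 6 heat stressed libraries lay below the heat resistant median. The means were 18209 ± 1352 CPM in heat stressed cows, against 19256 ± 1508 CPM in heat resistant ones (SD, n = 6 each). The log2 fold change was -0.08 ± 0.10 (SE; edgeR adjusted p = 0.675), with a 95% interval for the fold from 0.819 to 1.09.

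These levels count miR-320a once, while its name stands on 2 rows with the same values, and the annotation holds the genes MIR320A-1 and MIR320A-2. Of its 12 deposited values 3 were whole, 8 were whole after multiplying by 2, and 12 after multiplying by 6 (within 0.0001), so each row appears to hold a part of the reads. With repeat rows summed, miR-320a stood at 33211 ± 2090 CPM in heat stressed cows, against 35861 ± 3521 CPM in heat resistant ones (SD, n = 6 each). It then ranked 7 by abundance among the tested features, against rank 17 when counted once.

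The other arm of the miR-320a hairpin was almost absent. The row named for the 5' product of the MIR320A-2 hairpin held 2.5 counts in heat stressed library 2 and 2.5 counts in heat resistant library 1, and was listed at 0 in the other 10 libraries. The main miR-320a row held at least 84394 counts in every library. Separately, a 3' product of miR-320b, the only miR-320b row under a cattle name, was near the floor. It had counts in 4 of 6 heat stressed and 2 of 6 heat resistant libraries, with at most 3.67 counts in any of them. These rows were too sparse to test.

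miR-484, the second directly transcribed hairpin, was the next most abundant and varied more between cows. It ranged from 2115 to 3539 CPM in heat stressed cows, with a median of 2382 CPM, and from 1608 to 3238 CPM in heat resistant cows, with a median of 2067 CPM. All 6 heat stressed libraries lay above the heat resistant median, but the ranges overlapped, and heat resistant library 4 had the second highest value of all 12. Means were 2564 ± 534 CPM in heat stressed cows, against 2200.3 ± 574 CPM in heat resistant ones (SD, n = 6 each). The log2 fold change of 0.22 ± 0.18 (SE) did not pass the test (edgeR adjusted p = 0.503), and the 95% interval of the fold ran from 0.896 to 1.52. Without heat resistant library 4 the log2 fold change was 0.37, and without heat stressed library 4 it was 0.11, and neither passed.

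miR-877, the mirtron, stood at a much lower level that the groups shared. Its main row, read as 3 bases longer at the 3' end than the reference, ranged from 130.7 to 204 CPM in heat stressed cows (median 148 CPM) and from 106 to 190.04 CPM in heat resistant cows (median 141 CPM). Means were 159.5 ± 28.3 CPM in heat stressed cows, against 148.9 ± 33.1 CPM in heat resistant ones (SD, n = 6 each), and the log2 fold change was 0.10 ± 0.17 (SE; edgeR adjusted p = 0.797). The high and low libraries were spread over both groups, with heat stressed libraries 1 and 3 and heat resistant libraries 1 and 6 at the top. A second row, under a chimpanzee name, averaged 2.25 ± 1.08 CPM in heat stressed cows, against 1.99 ± 0.765 CPM in heat resistant ones (SD, n = 6 each), a log2 fold change of 0.17 ± 0.43 (SE) with an adjusted p of 0.880 in edgeR. The 3' product, under a goat name, was seen in 1 library, with 5 counts in heat stressed library 2 and 0 in the other 11, so that of this hairpin too 1 arm held nearly all reads.

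**Figure D1:**
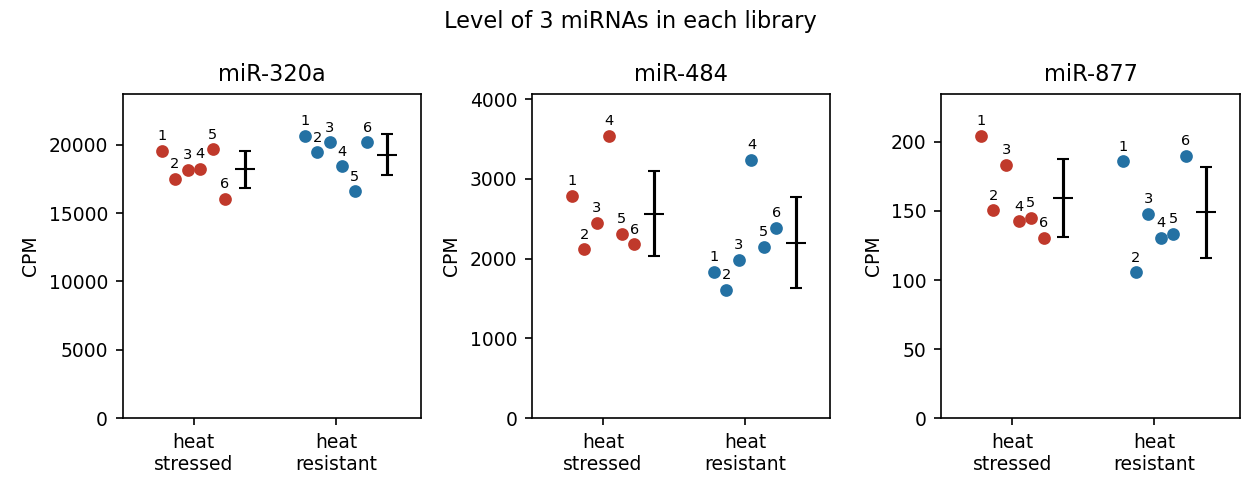
CPM of the main rows of miR-320a, miR-484 and miR-877 in each library, numbered within its group, with heat stressed cows in red on the left and heat resistant cows in blue on the right. Black marks give the group mean and SD (n = 6 each). The groups overlap for all 3 miRNAs, and heat resistant library 4 stands at 3238 CPM of miR-484.

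miR-320b is a close relative of miR-320a. Whether its reads come from the gene MIR320B was not tested, and its 3 tested rows stood under names of other species. Such names mark a sequence variant in this table, by the naming convention of the ACGT101-miR program, in which a suffix gives bases missing or added at an end and substitutions. The row under an orangutan name, with 1 substitution, ranged from 74.0 to 107 CPM in heat stressed cows (median 86.6 CPM) and from 63.3 to 92.8 CPM in heat resistant cows (median 73.9 CPM). All 6 heat stressed libraries lay above the heat resistant median, and heat resistant library 4 was again the second highest of all 12. The log2 fold change was 0.23 ± 0.14 (SE; edgeR adjusted p = 0.347), the smallest p of the tested members. The row under a human name that is 1 base shorter at the 3' end ranged from 45.5 to 56.2 CPM in heat stressed cows (median 54.2 CPM) and from 45.6 to 66.1 CPM in heat resistant cows (median 51.5 CPM). Its log2 fold change was -0.03 ± 0.13 (SE; edgeR adjusted p = 0.941). That row also stands on 2 rows with equal values, and with these summed it averaged 96.2 ± 4.61 CPM in heat stressed cows, against 100.5 ± 15.9 CPM in heat resistant ones (SD, n = 6 each).

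The last miR-320b row was 1 base shorter at the 5' end and carried 1 substitution. It had 2.84 ± 1.09 CPM in heat stressed cows, against 1.62 ± 1.01 CPM in heat resistant ones (SD, n = 6 each), and was listed at 0 in heat resistant library 5. Its log2 fold change of 0.82 ± 0.58 (SE; edgeR adjusted p = 0.439) rests on at most 32 counts in a library. In every library the main miR-320a row held between 99.1% and 99.4% of the reads of all miR-320a and miR-320b rows. Since the names differ by few bases, reads of miR-320b and reads of miR-320a with changed bases cannot be told apart in this table.

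Ordered by level, miR-320a stood above miR-484 and miR-484 above the main row of miR-877, with no overlap between the libraries of neighbours. The main miR-877 row and the orangutan-named miR-320b row overlapped, as did that row and the human-named one. All members together held 2.09 ± 0.152% of counts in heat stressed cows, against 2.19 ± 0.145% in heat resistant ones (SD, n = 6 each). Repeat rows were counted once in this share, so it may leave out a part of the miR-320a reads.

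**Figure D2:**
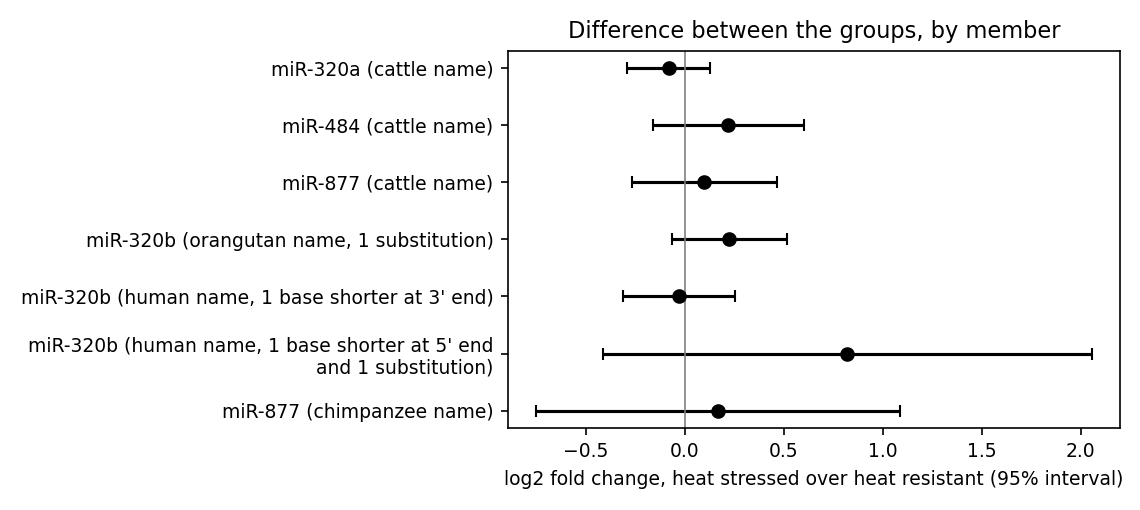
Log2 fold change, heat stressed over heat resistant, of the 7 members that passed the filter on low counts, ordered from the most abundant at the top, with 95% intervals from edgeR. Every interval spans 0, and the intervals of the rows near 2 CPM are the widest.

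In all, 7 of the 10 members passed the filter on low counts and 3 did not. With edgeR 0 of these 7 had an adjusted p under 0.05, and over all features 0 of 756 did (0%; limma-voom called 0 of 756, DESeq2 called 54 of 755, or 7.15%, and 0 of the 7). An unadjusted p under 0.05 was reached by 0 of the 7 members, and by 19.3% of all features. In none of the 7 did the groups separate without overlap, as 1.06% of all features did. Log2 fold changes were above 0 in 5 members and below 0 in 2, with a median of 0.17, while 376 of the 756 features were above 0 and 380 below, with a median of -0.0019. The p-values measure the spread between these libraries, and the labels do not say more of how the cows were sampled.

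The members also differed in how much they varied from cow to cow. miR-320a had a coefficient of variation (CV, the SD as a share of the mean) of 7.85% over the 12 libraries, rank 3 of 756 counted from the lowest. The 2 features below it were a 3' product of miR-181a at 6.87% and miR-151-3p at 7.47%, and the median over all tested features was 34.6%. The highest miR-320a library had 1.29 times the CPM of the lowest. The CV was 7.43% within heat stressed and 7.83% within heat resistant cows. Under the other scalings it stayed near this value, at 7.89% with the size factors of DESeq2 and 8.04% with no TMM factor.

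Both more abundant miR-320b rows were also among the steadier features, with CVs of 10.5% (rank 13) for the human-named and 14.5% (rank 45) for the orangutan-named row. miR-877 followed with 19.4% (rank 127) and miR-484 with 23.6% (rank 201). The rows near 2 CPM lay above the median of all features, the chimpanzee-named miR-877 row at 42.6% (rank 479) and the 5'-shortened miR-320b row at 53.3% (rank 584). Among the 92 features with a mean of 1000 CPM or more the median CV was 20.4%, and miR-320a ranked 2 and miR-484 ranked 56 from the lowest. These ranks are descriptions, with no test.

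**Figure D3:**
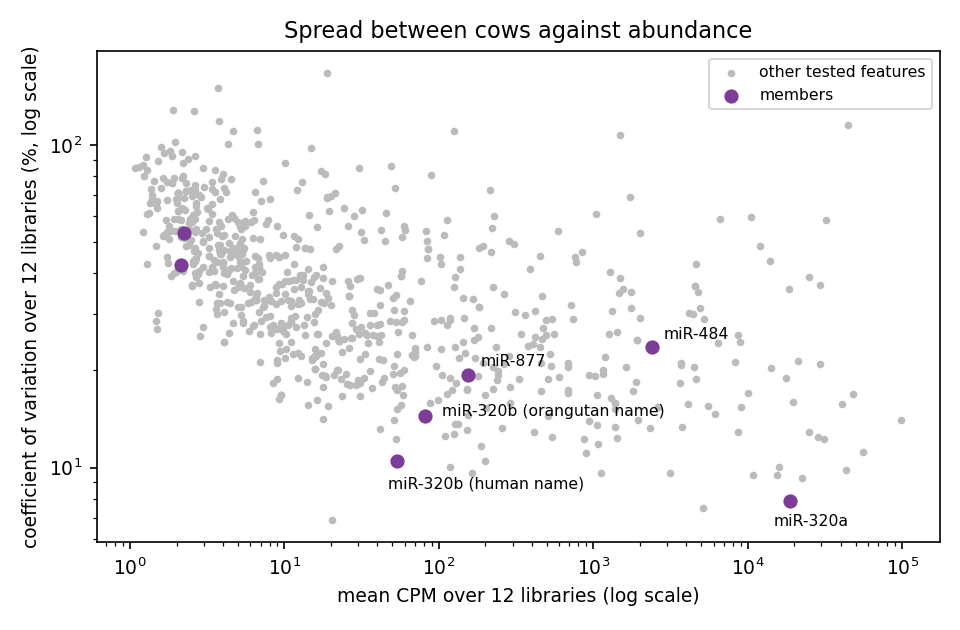
CV over the 12 libraries against mean CPM, both on log scales, for the 756 tested features in grey and the 7 tested members in purple. miR-320a lies at the lower edge of the cloud at 7.85%, and miR-484 lies inside it at 23.6%.

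The level of miR-484 was set beside the red cell miRNAs miR-451, miR-144 and miR-486. The libraries fell into 6 with 20217 to 27657 CPM of these markers (1 heat stressed, 5 heat resistant) and 6 with 45630 to 97827 CPM (5 heat stressed, 1 heat resistant), so no test of a correlation over all 12 is given. miR-486 made up most of these sums, at 17730 to 63206 CPM in heat stressed and 14565 to 71152 CPM in heat resistant libraries. miR-484 ranged from 2115 to 3539 CPM in the 6 libraries with more red cell miRNA and from 1608 to 2387 CPM in the 6 with less. Within the 6 libraries with more, miR-484 correlated with the markers at Pearson's r = 0.94 (exact permutation p = 0.00833) and Spearman's rho = 0.94 (exact p = 0.0167). Within the 6 with less, r was 0.82 (exact p = 0.0486) and rho 0.71 (exact p = 0.136). Without the 2 libraries farthest from the median, r was 0.97 in the first set and 0.55 in the second (n = 4 each). Adjusted over the 9 relations computed here, the Pearson p-values were 0.0750 and 0.219, so neither passed. All values are CPM of the same libraries and share their totals. The blood fraction was not among the labels, so the marker levels cannot be read as the number of red cells. A change in that number, in RNA per cell or of another source cannot be told apart here.

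miR-320a showed no correlation with these markers that passed the test, and the difference from miR-484 was not tested. It ranged from 17524 to 19688 CPM in the 6 libraries with more of them and from 16052 to 20649 CPM in the 6 with less. Within these sets its r with the markers was 0.02 (exact permutation p = 0.956; rho = 0.26, exact p = 0.658) and -0.71 (exact p = 0.131; rho = -0.77, exact p = 0.103). For miR-877 r was -0.33 (exact permutation p = 0.521; rho = -0.49, exact p = 0.356) and -0.04 (exact p = 0.924; rho = -0.14, exact p = 0.803) in the same order of sets. The r of miR-877 moved to 0.91 in the set with more red cell miRNA when the 2 farthest libraries were left out, so it rests on few points. The other r values with these libraries left out were 0.53 and -0.70 for miR-320a and -0.21 for miR-877.

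**Figure D4:**
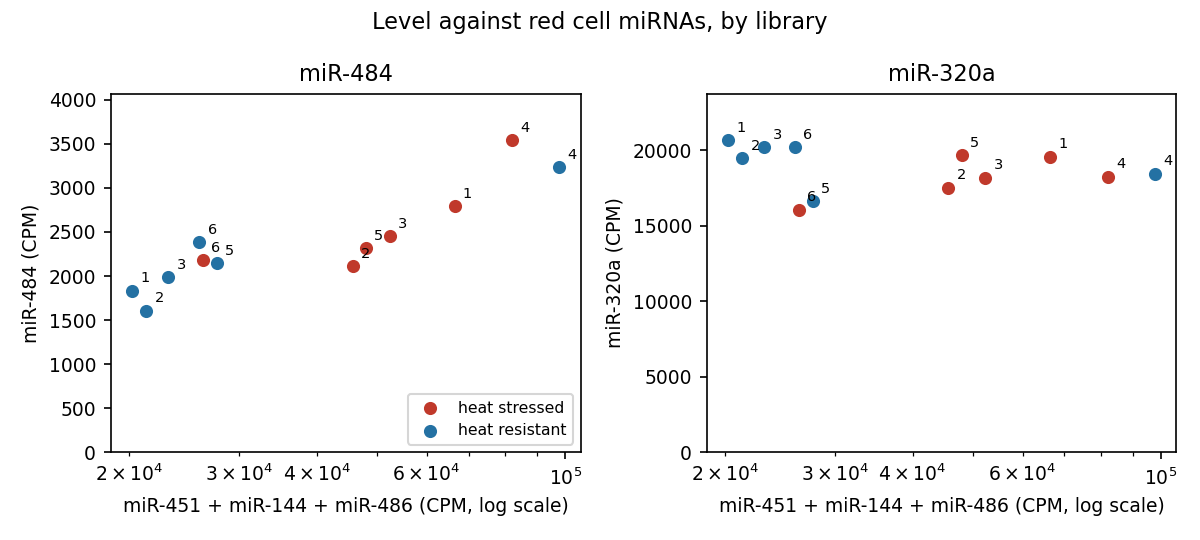
CPM of miR-484 (left) and miR-320a (right) against the summed CPM of miR-451, miR-144 and miR-486 on a log scale, 1 point a library, numbered within its group, heat stressed in red and heat resistant in blue. miR-484 is highest in heat stressed library 4 (3539 CPM) and heat resistant library 4 (3238 CPM), the libraries with the most red cell miRNA, while miR-320a stays between 16052 and 20649 CPM.

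Since the red cell markers were higher in most heat stressed libraries, they moved with the comparison of the groups. Ranges of the other markers overlapped between the groups, some of them widely. miR-126 ran from 2601 to 8830 CPM in heat stressed libraries, against 4166 to 7023 CPM in heat resistant ones. In the same order, summed muscle miRNAs ran from 118 to 775 CPM, against 87.4 to 728 CPM. miR-223 ran from 6717 to 12637.5 CPM, against 6143 to 10009 CPM, and miR-142 from 21221.5 to 40280 CPM, against 12396 to 29822 CPM. The summed lymphocyte miRNAs miR-150 and miR-342 ran from 5404 to 12237 CPM in heat stressed cows, against 3952 to 5704 CPM in heat resistant ones, and miR-122 from 9327 to 45470.1 CPM in heat stressed cows, against 18034 to 158453 CPM in heat resistant ones. The part of lymphocyte markers and miR-122 in the members' values was not tested. Log2 miR-451 over miR-23a, taken as a measure of red cell content, ran from -0.48 to 1.45 in heat stressed libraries. In heat resistant ones it was 1.92 in library 4 and -1.78 to -0.95 in the others, so it too moved with the groups. It did not closely follow the summed markers, at 0.26 in heat stressed library 6 (26245 CPM) and -0.48 in heat stressed library 2 (45630 CPM). When this ratio entered the fit as a covariate, the log2 fold change of miR-484 became -0.059 ± 0.14 (SE; edgeR adjusted p = 0.931). How far that change reflects red cell content was not tested. The value of the orangutan-named miR-320b row became 0.082, and that of miR-320a was -0.076.

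The balance of the most abundant members was compared directly by the log2 ratio of miR-484 to miR-320a, on which scaling between libraries bears little. It was -2.85 ± 0.26 in heat stressed cows, against -3.16 ± 0.40 in heat resistant ones (SD, n = 6 each). Heat stressed libraries ranged from -3.09 to -2.37 and heat resistant libraries from -3.60 to -2.51, and all 6 heat stressed libraries lay above the heat resistant median. The difference of 0.31 did not pass an exact permutation test (2-sided p = 0.13). Without heat resistant library 4, the library with the most red cell miRNA, it was 0.45 and passed (exact permutation p = 0.0195). That p-value was not adjusted for leaving out each library in turn, and the other such runs had exact p from 0.110 to 0.264. With that library left out, the heat resistant libraries all lay in the set with less red cell miRNA. Most heat stressed libraries lay in the set with more, so group and red cell miRNA cannot be told apart there.

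No pair of the 3 main members correlated past the threshold over the cows. Over all 12 libraries r was -0.16 between miR-484 and miR-320a (permutation p = 0.629; rho = -0.21, p = 0.516), 0.40 between miR-877 and miR-320a (permutation p = 0.198; rho = 0.45, p = 0.140) and 0.22 between miR-484 and miR-877 (permutation p = 0.50; rho = 0.13, p = 0.698). Adjusted over the 9 relations the Pearson p-values of these 3 were 0.809, 0.446 and 0.781. Leaving out the 2 libraries farthest from the median gave -0.45, 0.24 and -0.30. Within heat stressed cows r was 0.36, 0.58 and 0.19 for these pairs in turn, and within heat resistant cows -0.31, 0.49 and 0.13, none with an exact permutation p under 0.236.

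By rank over the 12 libraries, the cattle-named features most like miR-484 were miR-144 (rho = 0.95), miR-486 (rho = 0.91) and miR-25 (rho = 0.88), the first 2 of them red cell markers, whose libraries fall into the sets of 6 with more and 6 with less described above. Those most like miR-320a were miR-1307 (rho = 0.75), miR-423-3p (rho = 0.71) and miR-760-3p (rho = 0.71). Those most like miR-877 were miR-411a (rho = 0.76), miR-2284aa (rho = 0.73) and miR-423-5p (rho = 0.67). These were picked as the highest of many features, so the values are descriptions.

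miR-320c, miR-320d and miR-320e, relatives of miR-320a known from primates, stood under human names as 11 features, of which 4 were tested. The most abundant, a form of miR-320c, had 123 ± 9.63 CPM in heat stressed cows, against 113 ± 12.6 CPM in heat resistant ones (SD, n = 6 each), more than either miR-320b row counted once, with a CV of 10.1% (rank 12). Of the 4, 3 were above 0 and 1 below, with adjusted p (edgeR) from 0.606 to 0.981.

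Other miRNAs known to be made outside the usual route were only partly present in the table, and their levels differed widely. Of 16 listed, 7 had a name in it, with 13 names of which 9 were tested. Of these 9, 4 were above 0 and 5 below, the median log2 fold change was -0.0096, and 0 had an adjusted p under 0.05 with edgeR, nor an unadjusted one. Of 10 mirtrons and related intronic hairpins 2 were present, both below miR-877 in level. miR-1224 stood at 15.7 ± 2.84 CPM in heat stressed cows, against 15.8 ± 4.32 CPM in heat resistant ones, and miR-1225 at 4.73 ± 2.13 CPM in heat stressed cows, against 5.72 ± 2.35 CPM in heat resistant ones (SD, n = 6 each). miR-1839, a snoRNA-like miRNA made without the Drosha partner DGCR8 in mouse, stood at 858 ± 102 CPM in heat stressed cows, against 871 ± 119 CPM in heat resistant ones (SD, n = 6 each). A 5' product of miR-664, which lies in a snoRNA, had the smallest adjusted p of the list (edgeR adjusted p = 0.310). This row, under a pig name and with a substitution, had a log2 fold change of 0.31 ± 0.17 (SE). The cattle-named rows were at -0.10 for miR-664a and -0.0096 for miR-664b (edgeR adjusted p = 0.931 and 0.995). miR-451, which Argonaute 2 cuts in place of Dicer, had a log2 fold change of 0.37 ± 0.39 (SE; edgeR adjusted p = 0.624).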

How the data were processed

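Trizol extracts of blood went into TruSeq small RNA libraries for Illumina sequencing, and reads were filtered with ACGT101-miR, per the labels' protocols. Neither aligner, build nor miRBase release was given in the sources used here. No mature sequences were used. The deposited raw columns hold expected counts per row, of which 80.2% of those above 0 were whole (within 1e-06). The deposited normalized counts, a signal, equal the raw values times 0.692 to 1.70 per library and entered no test. Of 2183 rows, 202 repeat a name with the same values and were counted once. Counts were rounded and fitted over all features with edgeR 4.0.16 under R 4.3.3 (filterByExpr, minimum count of 10, TMM, robust quasi-likelihood F test, Benjamini-Hochberg at 0.05, 2-sided). CPM use the TMM-scaled totals of the tested features, and log2 CPM had 1 added. DESeq2 1.42.0, limma 3.58.1, other scalings, filters and row sums, a red cell covariate, a replicate block and leaving out each library were alternatives. Permutation tests used scipy 1.17.1 and numpy, exact below 10 values and with 100000 draws otherwise. The tests were checked on simulated data. All members are named; the other features are those with the highest rank correlation. The members and lists were chosen with earlier results of these data known. The split by red cell markers was set at their widest gap after they were seen. Values of 0 make up 44.3% of the table.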

Additional observations from a re-analysis of the deposited data

Results flagged for a closer look

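In 24 groups of 6 values looked at, 4 held a library far from the others, where chance flags about 1 in 20 groups. That rate does not hold for groups with a single value above 0, such as the 5' product of miR-320a and the 3' product of miR-877. Those are flagged by construction, so the counts do not show an excess. Summed red cell markers stood at 97827 CPM in heat resistant library 4, against 20217 to 27657 CPM in the other 5 of that group. The 5' product of miR-320a stood at 0.233 CPM in heat stressed library 2 and at 0.283 CPM in heat resistant library 1, and the 3' product of miR-877 at 0.582 CPM in heat stressed library 2, each against 0 in the other 5 libraries of its group, which comes to a few counts.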

How the results depend on the processing

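No member was called under any of the 22 alternatives to the edgeR fit in which it was tested. The log2 fold change of miR-320a ranged from -0.13 to -0.05 over the 12 fits that left out 1 library, that of miR-484 from 0.11 to 0.37 and that of miR-877 from 0.015 to 0.17, with adjusted p of at least 0.116. With cattle names only, it was -0.16 for miR-320a, 0.15 for miR-484 and 0.022 for miR-877. The sign of miR-484 turned with the red cell covariate, to -0.059. The 3'-shortened miR-320b row turned to 0.00087 with no filter and 0.0039 with isoform rows summed, and ran from -0.11 to 0.022 over left-out libraries; the chimpanzee-named miR-877 row ran from -0.062 to 0.40. The causes were not tested. The orangutan-named row and the 5'-shortened miR-320b row kept their sign throughout. Over all features 54 were called with DESeq2, 11 with no filter, 13 with repeat rows summed, 8 with the replicate block, and 0 to 97 without 1 library, of which 97 without heat resistant library 4, 29 without heat stressed library 2 and 2 without heat resistant library 5. The difference in the ratio of miR-484 to miR-320a ran from 0.22 to 0.45 without 1 library, and passed only without heat resistant library 4, with no adjustment for these runs.

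The same numbers in both groups are not said to mark pairs. Same-numbered libraries deviated together, with a correlation over 0.1, in 2 of 6 numbers (from -0.06 to 0.34), and 6 of the 12 libraries correlated best with their own number. No chance level is given for these counts, so whether the numbers mark pairs cannot be told from them. With the replicate block miR-484 had a log2 fold change of 0.23 (edgeR adjusted p = 0.297), and the ratio a within-number difference of 0.31 (exact sign-flip permutation p = 0.0625).

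Chosen after seeing the data, the CV of miR-320a ranged from 6.66% to 8.21% without 1 library and was 8.94% (rank 5) with repeat rows summed. The r of miR-484 with the red cell markers ran from 0.93 to 0.99 in the libraries with more of them without 1 library (exact permutation p up to 0.05) and from 0.80 to 0.86 in those with less (exact p 0.05 to 0.108), where it was 0.73 with repeat rows summed (exact p = 0.1). Rows near 2 CPM rest on few counts, and their intervals limit what can be seen.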
